A study of Mus musculus with 7 samples.

Results

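Rab GTPases are small membrane switches that give each vesicle and organelle of a cell its identity. When loaded with GTP, a Rab recruits effectors that move, tether and fuse membranes, guanine nucleotide exchange factors switch it on, and GTPase activating proteins switch it off. In pancreatic beta cells the Rab3 and Rab27 proteins are known for their work on insulin granules, while other Rabs run the traffic from the endoplasmic reticulum through the Golgi, the recycling of receptors and the route to lysosomes. The genes described here are the 59 whose array symbol is Rab followed by a number, with or without a letter, among 19938 genes measured. The rule reads the symbol and no measured value, and the genes are represented by 62 probe sets, of which the brightest stood for each gene.

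The expression of these genes was measured in beta cells of 25-day-old mice that carried an insulin promoter-driven Cre recombinase and a Cre-activated yellow fluorescent protein at the Rosa26 locus, on the ICR background. The prematurely weaned group (3 mice) had left the mother at postnatal day 18, and the suckling group (4 mice) had stayed with her, so both groups share genotype, strain and age. From each mouse 2000 to 6000 fluorescent cells were sorted, and each mouse gave 1 Affymetrix array. The comparison asks how the same cells differ after early weaning.

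Because the reporter marks cells by the activity of a Cre transgene, the identity of the sorted cells was checked against marker genes. All 9 measured beta-cell markers lay above background, among them Iapp at 12.5 log2 units in both groups, Slc2a2 at 10.1, Ins2 at 8.25 and 8.27 and Mafa at 5.83 and 6.01 in weaned and suckling mice. Gcg (11.9 weaned, 12.1 suckling) and Sst (11.8 and 12.0), which define alpha and delta cells, were also bright. All 5 duct markers, among them Cftr (7.35 and 7.31), 3 of 5 mesenchyme, 2 of 5 endothelial and 1 of 6 leukocyte markers were above background in both groups too. Summed over 14 acinar markers, intensity ran from 187 to 1180 on the weaned arrays and from 234 to 4530 on the suckling arrays, with suckling replicates 2 and 9 the highest. The weaned array at 1180 was replicate 12, with replicates 4 and 5 at 187 and 188. It lay above suckling replicates 11 (234) and 12 (606). All 14 acinar markers were lower in mean in weaned mice. Of these and of the beta, alpha, delta, PP, duct, leukocyte, endothelial and mesenchyme markers 0 passed an adjusted p of 0.05 (limma). In such bulk samples fewer cells of a type and less RNA per cell cannot be told apart. The array descriptions carry 1 code on the weaned and another on the suckling arrays, so the code and the weaning cannot be told apart.

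Most Rab genes gave signal in these cells. As a background reference served the 95th percentile of 1027 olfactory receptor genes, 3.27 log2 units in the weaned and 3.35 in the suckling group. Of the 59 genes, 50 (84.7%) were above it in both groups, against 65.5% of all genes. The other 9 were Rab7b, Rab17, Rab26, Rab27b, Rab30, Rab33a and Rab42, which were not above the reference in either group, and Rab15 and Rab32, which were above it in the weaned group alone. The genes above background and the others were also compared by the sequence before their start. A RefSeq window (build GRCm38.p6) of the 250 bases before the start was at hand for 48 of the genes, and the dinucleotide CG, which reads the same on both strands, was counted in it, taking the window with the most CG where a gene had several. The 43 genes above background had a median of 19 CG and the 5 others a median of 5. At least 15 CG were found in 65.1% of the former and in 1 of the latter, Rab15. Over all genes measured the shares were 57.1% and 14.3%, the same order. Not looked at in this way were Rab2a, Rab4a, Rab7b, Rab18, Rab26, Rab27b, Rab30, Rab36, Rab37, Rab38 and Rab44. Among them Rab7b, Rab26, Rab27b and Rab30 were not above background, so only 5 of the 9 such genes entered the comparison.

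Over the 48 genes the count ran from 3 to 42 CG. Windows of 4 members are given as examples, written 5′ to 3′ on the strand of the gene with every CG in capitals. Rab2b is shown because it alone separated the groups, Rab1a and Rab1b because their balance is compared within arrays further on, and Rab17 as a CG-poor gene that was not above background. The Rab2b window holds 23 CG (chr14:52279396-52279645, minus strand), as do those of Rab1a (chr11:20201162-20201411, plus strand) and Rab1b (chr19:5106997-5107246, minus strand). The Rab17 window holds 3 (chr1:90967668-90967917, minus strand).
Rab2b: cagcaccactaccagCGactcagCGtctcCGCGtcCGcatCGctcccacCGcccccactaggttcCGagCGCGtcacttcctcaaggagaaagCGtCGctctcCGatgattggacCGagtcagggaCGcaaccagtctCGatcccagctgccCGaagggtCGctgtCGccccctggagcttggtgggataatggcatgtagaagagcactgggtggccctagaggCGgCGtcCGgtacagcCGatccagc
Rab1a: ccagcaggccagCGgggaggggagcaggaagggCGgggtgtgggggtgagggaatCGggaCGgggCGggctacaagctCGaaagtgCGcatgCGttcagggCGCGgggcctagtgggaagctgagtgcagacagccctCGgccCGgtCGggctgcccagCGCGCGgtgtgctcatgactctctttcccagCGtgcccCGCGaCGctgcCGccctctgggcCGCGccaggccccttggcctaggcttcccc
Rab1b: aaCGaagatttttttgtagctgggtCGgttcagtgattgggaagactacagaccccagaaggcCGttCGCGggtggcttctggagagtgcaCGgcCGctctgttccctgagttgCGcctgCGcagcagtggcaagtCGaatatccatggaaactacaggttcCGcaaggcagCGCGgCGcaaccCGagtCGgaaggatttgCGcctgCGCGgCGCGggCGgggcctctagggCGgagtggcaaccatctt
Rab17: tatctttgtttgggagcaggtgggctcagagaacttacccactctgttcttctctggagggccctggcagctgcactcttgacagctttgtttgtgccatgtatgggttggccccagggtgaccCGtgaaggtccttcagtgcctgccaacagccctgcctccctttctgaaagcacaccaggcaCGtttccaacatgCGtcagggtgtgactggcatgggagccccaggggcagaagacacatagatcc

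**Figure D1:**
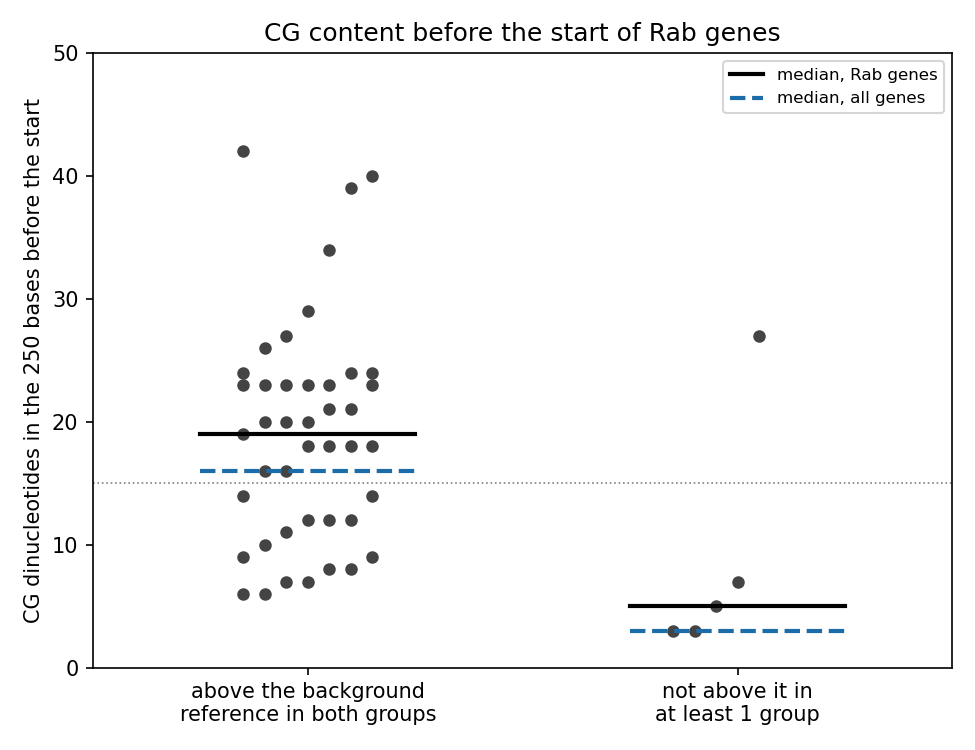
CG dinucleotides in the 250 bases before the start of 48 Rab genes (vertical axis, count), split by whether the gene was above the background reference in both groups. Points are genes, the solid line is the Rab median (19 and 5), the dashed line the median of all genes (16 and 3) and the dotted line 15 CG. One gene on the right, Rab15, stands at 27.

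The comparison of weaned with suckling mice found no Rab gene past an adjusted p of 0.05 (limma, Benjamini-Hochberg over all genes), where 0.015% of all genes passed, and the lowest adjusted p of a member was 0.552. At an unadjusted p under 0.05 stood 3 of 59 members, or 5.08%, below the 7.58% of all genes. Of these Rab19 and Rab15 were higher in weaned mice and Rab2b was lower, where 4.39% of all genes were higher and 3.19% lower. The groups of arrays did not overlap for 1 member, Rab2b, or 1.69%, where 7.32% of all genes had such groups. Whether these shares differ from those of all genes was not tested. They depend on weaned replicate 12. Without that array 7 members (11.9%) had an unadjusted p under 0.05, beside 7.66% of all genes. Groups did not overlap for 13 members (22%), beside 15.9% of all genes, and fewer arrays make such separation more frequent. The median log2 difference of the 59 genes was 0.023 (31 higher and 28 lower in mean), beside 0.00047 for all genes. Among genes above background in both groups the medians were 0.028 for 50 Rab genes and 0.022 for all. Centring each array on its own median gave medians of 0.057 for the 59 and 0.035 for all genes. That centring also shifted the split of all genes at an unadjusted p under 0.05, from 875 higher and 637 lower to 1184 and 434, while that of the members stayed at 2 and 1.

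For genes with signal, each interval bounds the difference in array intensity of that gene alone, and it is no bound over all genes together. Rab2a, Rab5b and Rab11b are counted here by their brighter probe sets, described further on. For the 50 Rab genes above background in both groups the 95% interval of the difference lay within a 2-fold change in either direction, and for 40 (80.0%) within a 1.5-fold change, beside 97.5% and 74.7% of all such genes. The intervals of the other 9 bound no change in expression. Some of the 50 lay just above the reference, and their intervals may not bound such a change either. Rab38, for example, had means of 3.337 in weaned and 3.353 in suckling mice, against references of 3.269 and 3.348. The median standard error was 0.14 log2 units. The number of arrays limits this precision. The spread between mice of 1 group was alike too, with a median within-group SD of 0.19 log2 units over the 50 Rab genes above background and 0.20 over all such genes. Among those 50 it ran from 0.067 for Rab14, a Rab of the route between Golgi and endosomes, to 0.44 for Rab31, an endosomal relative of Rab22a.

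**Figure D2:**
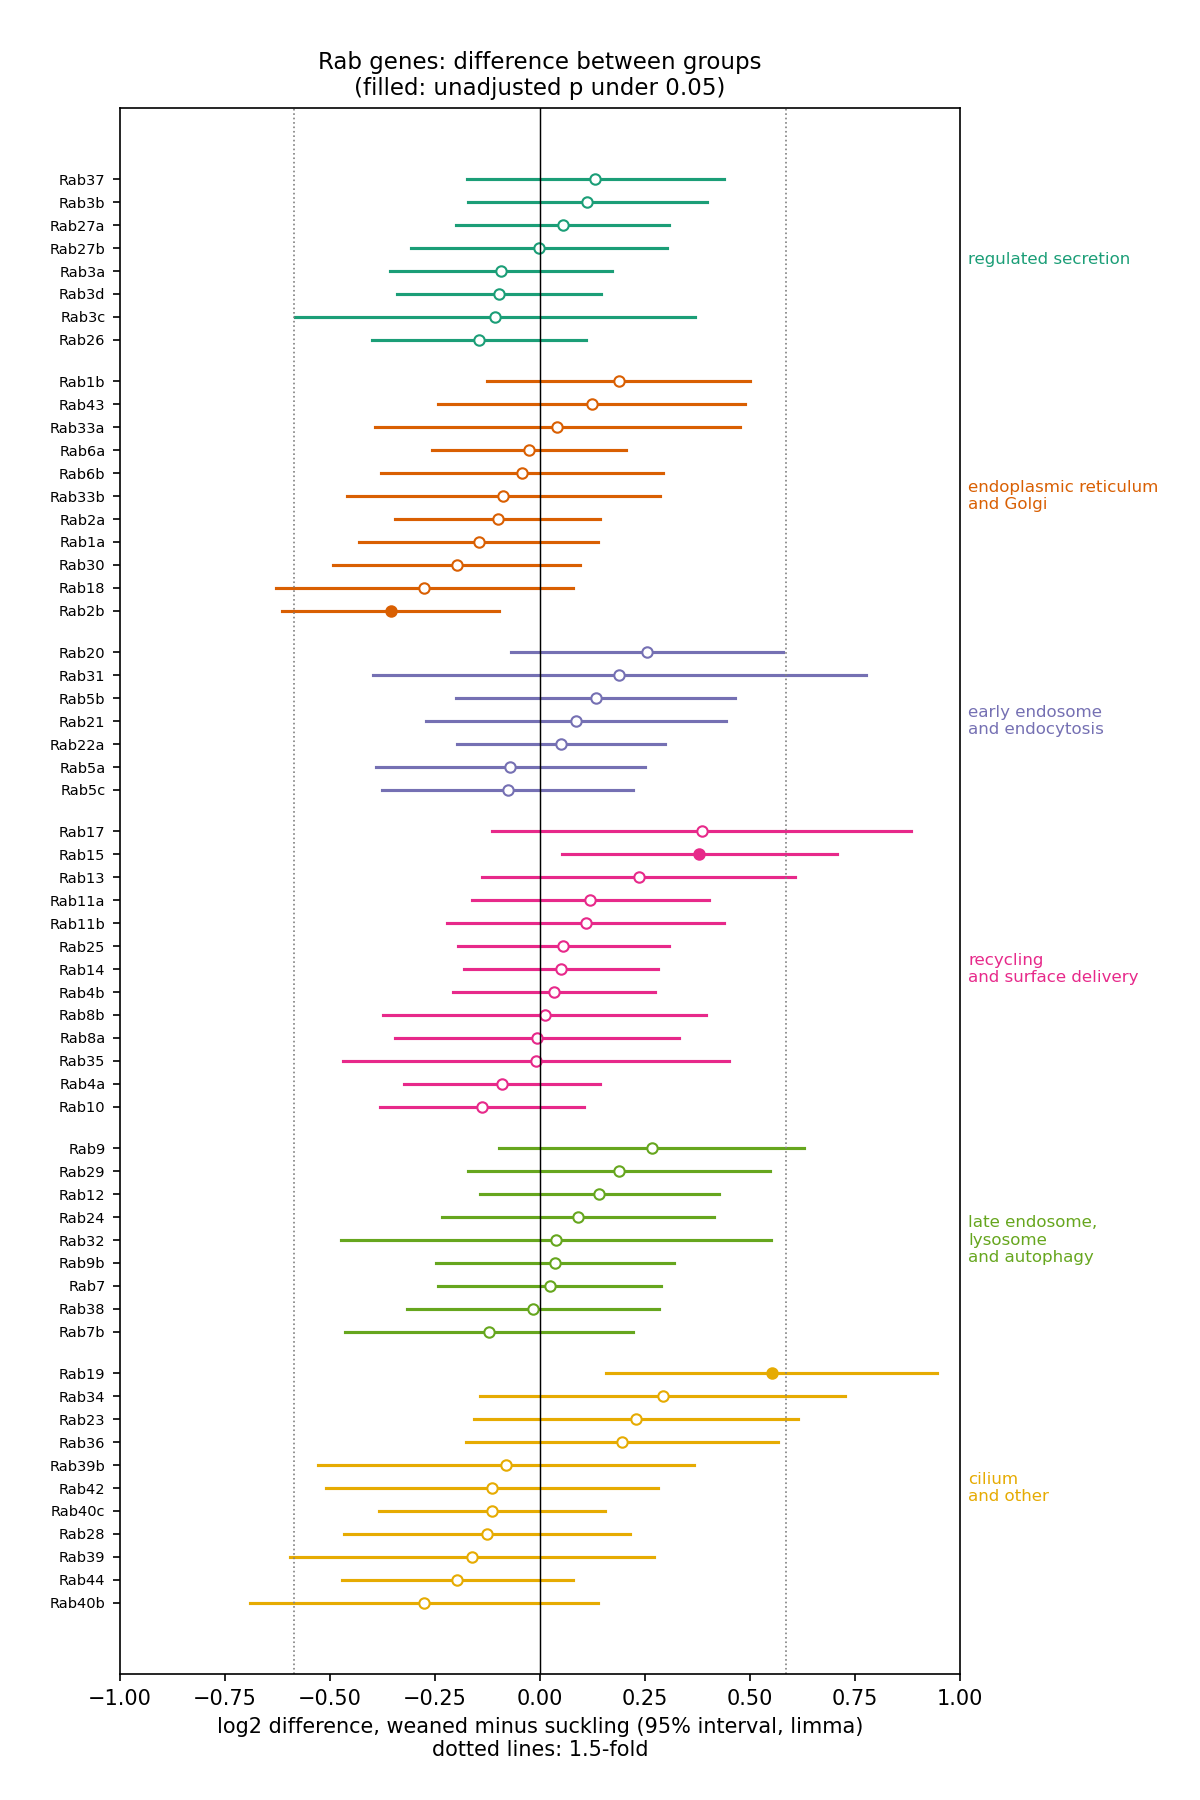
Log2 difference (weaned minus suckling, horizontal axis) of the 59 Rab genes with its 95% interval from limma, ordered within groups of like function; dotted lines mark 1.5-fold. Filled points are Rab19, Rab15 and Rab2b, the 3 with an unadjusted p under 0.05, and every interval lies within the 2-fold limits of the axis, those of the 9 genes not above background in both groups included.

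Rab2b, a close relative of the Golgi and endoplasmic reticulum GTPase Rab2a, was the gene whose groups stood apart. On the log2 scale weaned replicates 4, 5 and 12 gave 5.14, 5.29 and 5.24, and suckling replicates 2, 9, 11 and 12 gave 5.39, 5.61, 5.70 and 5.61; all arrays below are given in this order. All weaned values lay under all suckling values, by the smallest margin against suckling replicate 2. The means were 5.22 ± 0.074 (SD, n = 3) and 5.58 ± 0.13 (SD, n = 4). The difference was -0.36 (SE 0.12, 95% interval -0.61 to -0.097, unadjusted p = 0.0123 and adjusted p = 0.553 by limma), a 1.28-fold lower mean in weaned mice.

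Rab19, a little-studied Rab of Golgi membranes and the forming cilium, gave the widest difference of the family. Its weaned values were 4.76, 4.76 and 4.45 and its suckling values 3.72, 4.20, 4.45 and 4.06 log2 units, so that the groups met at 4.45. The means were 4.66 ± 0.18 (SD, n = 3) and 4.11 ± 0.31 (SD, n = 4). The difference was 0.55 (SE 0.18, interval 0.16 to 0.95, unadjusted p = 0.0112 and adjusted p = 0.552 by limma). The lowest array for Rab19, suckling replicate 2, carried the highest acinar sum, 4533. Suckling replicate 9, with a sum of 3958, gave 4.20 and so lay above replicate 12, whose sum was 606. The difference was 0.42 without replicate 2, and 0.37 with acinar level in the model, where its unadjusted p was no longer under 0.05; the part of acinar RNA in the result was not tested.

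Rab15, which acts at early and recycling endosomes, was close to background. It measured 3.53, 3.32 and 3.53 log2 units on the weaned arrays and 2.79, 3.13, 3.36 and 3.05 on the suckling arrays. The suckling mean of 3.08 is not above the background reference of 3.35. The measured difference of 0.38 (SE 0.14, unadjusted p = 0.0278, adjusted p = 0.628 by limma) therefore does not give the size of a change. With suckling values under the reference raised to it, the weaned mean was 1.08-fold higher. That figure compares means, carries no interval and is no sure minimum, and weaned replicate 5 lay under the suckling reference.

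The Rabs of regulated secretion prime and dock insulin granules. Of 8 members, 2 of them not above background, 3 were higher and 5 lower in weaned mice in mean, with a median log2 difference of -0.047. At an unadjusted p under 0.05 stood 0 of the 8 (lowest adjusted p = 0.81, limma), beside 7.58% of all genes. A list this short can hold 0 at that share. For the 6 above background the interval lay within a 1.5-fold change. Rab27a, the Rab that binds granuphilin and other effectors on the insulin granule, measured 8.89, 8.73 and 8.58 log2 units in weaned and 8.70, 8.61, 8.65 and 8.74 in suckling mice. The difference was 0.054 (interval -0.20 to 0.31), and the suckling values fall inside the weaned range. Rab27b, its close relative, lay under the reference at 2.92 to 3.26 in weaned and 2.93 to 3.32 in suckling mice.

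Rab3a, the brain and endocrine form of the vesicle Rab, measured 6.66, 6.68 and 6.64 on the weaned arrays against 6.52, 6.82, 6.82 and 6.85 on the suckling arrays. The weaned values are tightly grouped and lie between suckling replicate 2 and the other three, with a difference of -0.092 (interval -0.36 to 0.17). For Rab3b the weaned values of 6.57, 6.57 and 6.53 were as tight, and the suckling values of 6.40, 6.20, 6.54 and 6.63 spread on both sides (0.11, interval -0.17 to 0.40). Rab3c was the most scattered of the set, with 4.38, 4.86 and 5.23 in weaned and 4.62, 5.00, 4.85 and 5.25 in suckling mice (-0.11, interval -0.58 to 0.37). Rab3d, which is also known from the zymogen granules of acinar cells, gave 8.12, 8.36 and 8.27 against 8.28, 8.38, 8.31 and 8.41 log2 units (-0.097, interval -0.34 to 0.15). Any part of acinar RNA in these values was not tested. Rab26, another Rab of secretory granules, was not above background, at 3.0 to 3.18 in weaned and 3.10 to 3.38 in suckling mice. Rab37 measured 6.41, 6.10 and 6.37 in weaned and 6.07, 5.96, 6.31 and 6.31 in suckling mice, and the groups overlap (0.13, interval -0.18 to 0.44).

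**Figure D3:**
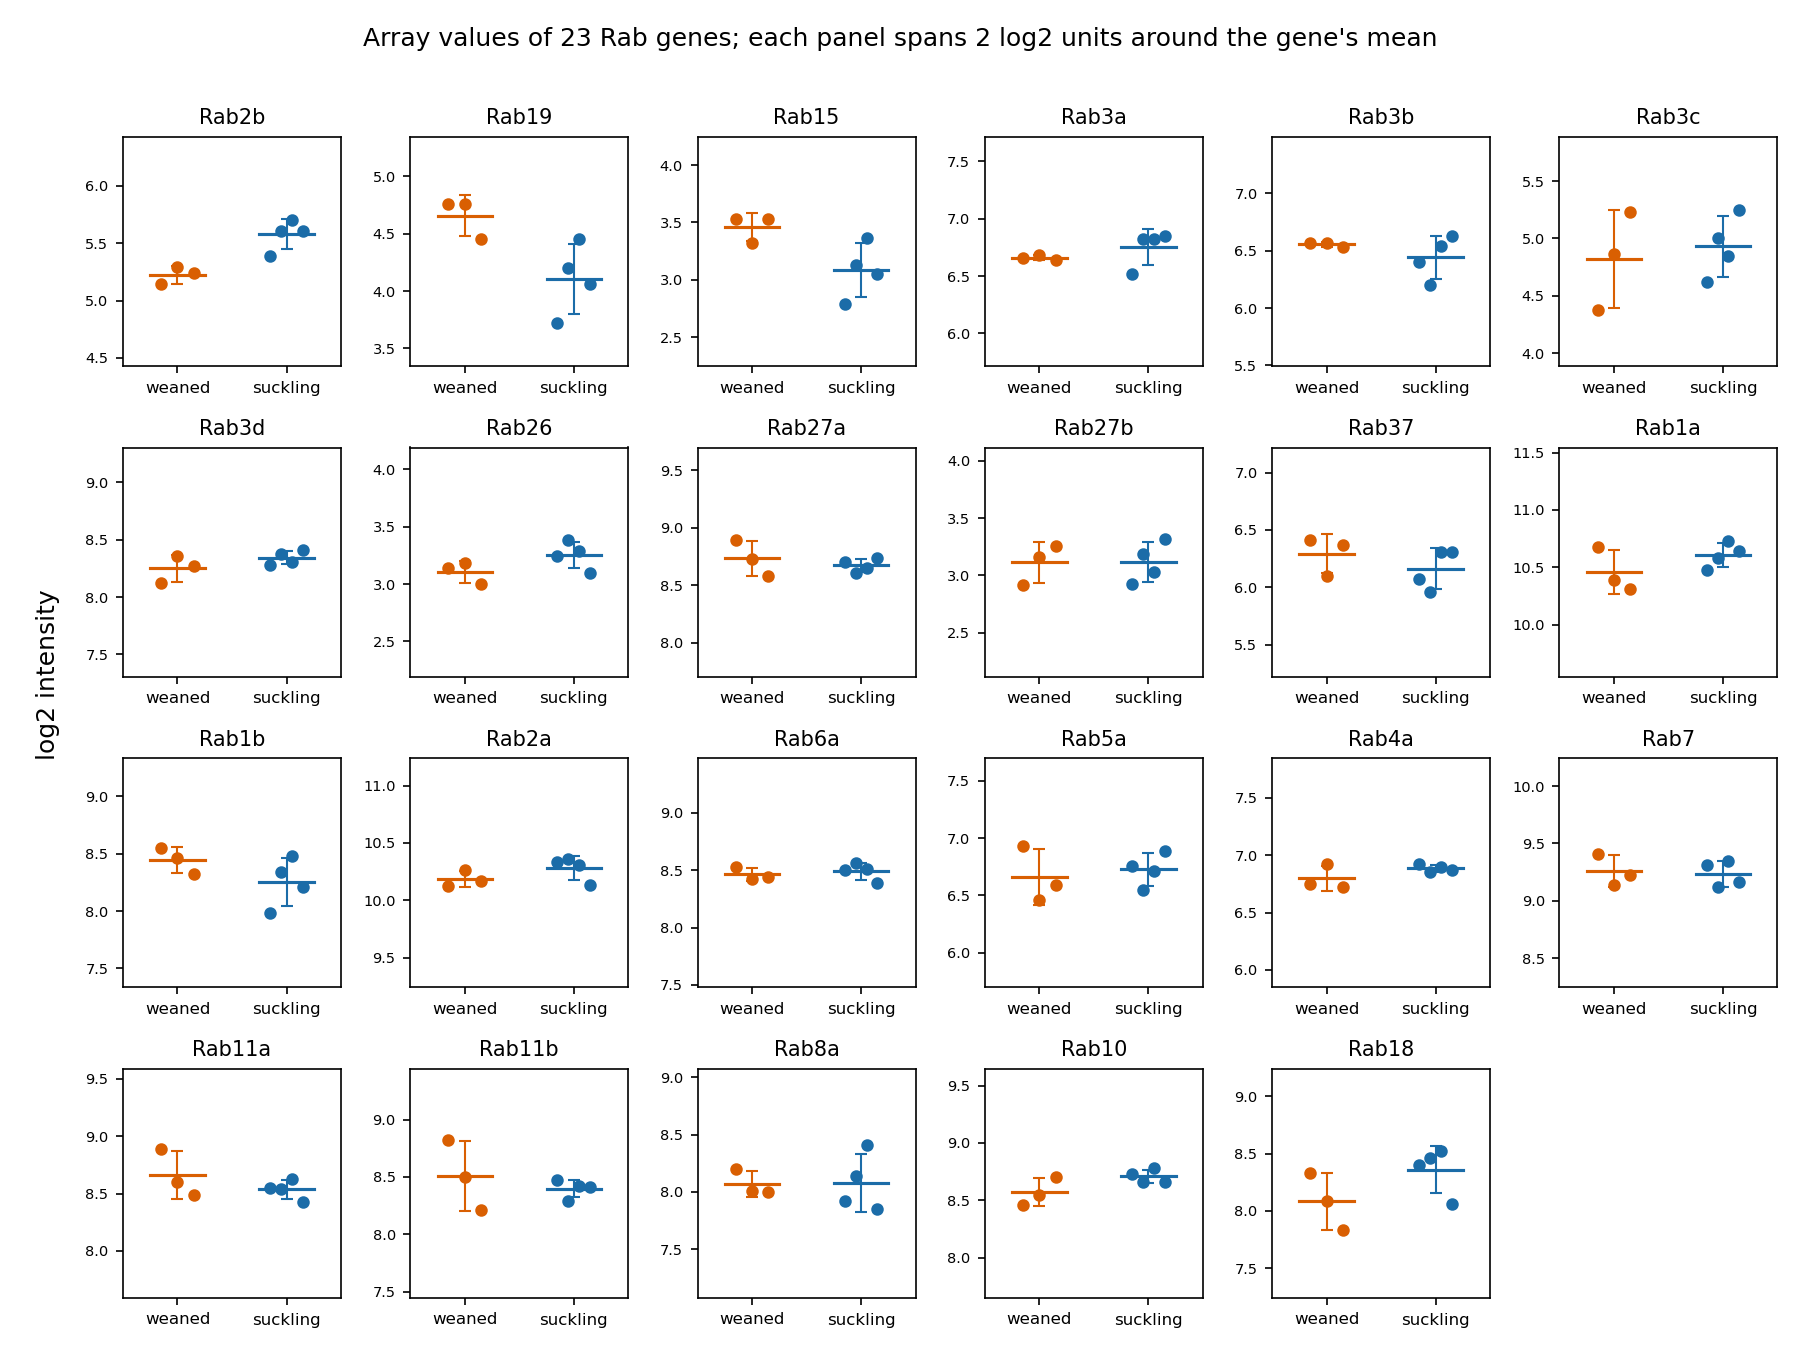
Log2 intensity (vertical axis) of 23 Rab genes on the 3 weaned and 4 suckling arrays; points are arrays, long bars group means and whiskers 1 SD. All panels have the same height in log2 units, and only in the Rab2b panel do the groups lie apart.

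Rabs of the endoplasmic reticulum and Golgi drive the early secretory route on which proinsulin travels. Of 11 members 8 were lower and 3 higher in weaned mice in mean, with a median of -0.087. Rab2b was the only one at an unadjusted p under 0.05 (limma), or 9.09% beside 7.58% of all genes. Rab1a, which tethers vesicles arriving at the Golgi, measured 10.68, 10.39 and 10.31 log2 units in weaned and 10.48, 10.58, 10.73 and 10.64 in suckling mice (-0.15, interval -0.43 to 0.14). Its partner isoform Rab1b measured 8.55, 8.46 and 8.32 against 7.98, 8.34, 8.48 and 8.21 (0.19, interval -0.13 to 0.50). Both comparisons overlap between groups, with the mean of Rab1a lower and that of Rab1b higher in weaned mice. Rab6a, of retrograde Golgi traffic, was among the steadiest genes, with 8.53, 8.42 and 8.44 in weaned and 8.50, 8.56, 8.51 and 8.39 in suckling mice (-0.027, interval -0.26 to 0.21). Rab18, which acts at the endoplasmic reticulum and lipid droplets, gave 8.33, 8.09 and 7.83 against 8.40, 8.46, 8.52 and 8.06 (-0.28, interval -0.63 to 0.078), where suckling replicate 12 lies among the weaned values. Of the remaining members Rab43 (0.12), Rab6b (-0.043) and Rab33b (-0.087) had intervals that include 0, and Rab30 and Rab33a were not above background in either group.

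Rab2a, which recruits effectors for Golgi structure and dense-core granule formation, had probe sets of uncertain origin, as had Rab5b and Rab11b. These are the 3 members with 2 probe sets each. For each of them the 20 probe sets nearest in number to the brighter one all belong to genes of a chromosome other than the gene's own (5 and not 4 for Rab2a, 2 and not 10 for Rab5b, 19 and not 17 for Rab11b). Of all single-symbol probe sets 2.64% had no such neighbour on their own chromosome. Which transcript the brighter probe sets bind was not tested, so both are given. The brighter Rab2a set measured 10.12, 10.26 and 10.17 log2 units in weaned and 10.33, 10.36, 10.31 and 10.13 in suckling mice (-0.10), and the other 8.30, 8.20 and 8.20 against 8.28, 8.22, 8.21 and 8.41 (-0.048, interval -0.27 to 0.18). The sets of Rab5b differed by 0.13 and 0.25 and those of Rab11b by 0.11 and 0.21, with unadjusted p of 0.16 to 0.64 over the other sets of the 3 genes (limma over all probe sets). The sign was the same within each gene.

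Early endosome Rabs, which receive internalised membrane, had 5 members higher and 2 lower in mean (median 0.085). Rab5a, the master switch of early endosome fusion, measured 6.93, 6.46 and 6.59 log2 units in weaned and 6.76, 6.55, 6.71 and 6.89 in suckling mice (-0.070, interval -0.39 to 0.25). Its relative Rab5c differed by -0.077. The phagosome and endosome Rab Rab20 had the widest difference here (0.25, interval -0.070 to 0.58), with weaned replicate 5 at 5.08 and the suckling arrays from 4.48 to 4.70. Rab31 (0.19), Rab21 (0.085) and Rab22a (0.050) had intervals on both sides of 0.

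Rabs of recycling and delivery to the cell surface numbered 13, of which 9 were higher and 4 lower in weaned mice in mean (median 0.050). Rab11a, of the recycling endosome, measured 8.89, 8.60 and 8.49 log2 units in weaned and 8.55, 8.54, 8.63 and 8.43 in suckling mice (0.12, interval -0.16 to 0.40). The brighter Rab11b set gave 8.82, 8.50 and 8.21 against 8.47, 8.29, 8.42 and 8.41, and weaned replicate 4 was the highest array for both. On the other Rab11b set weaned replicate 12 was the highest at 7.91, with weaned replicate 4 at 7.56. Rab4a, of fast recycling, was tight at 6.75, 6.92 and 6.72 in weaned and 6.92, 6.85, 6.90 and 6.87 in suckling mice (-0.091, interval -0.32 to 0.14). Rab8a, of delivery from the Golgi to the surface and of cilia, gave 8.20, 8.01 and 8.0 against 7.92, 8.14, 8.41 and 7.85 (-0.0065, interval -0.34 to 0.33). Rab10, known in fat cells for moving glucose transporter vesicles, gave 8.46, 8.55 and 8.70 against 8.73, 8.66, 8.78 and 8.66 (-0.14, interval -0.38 to 0.11), and weaned replicate 12 lies among the suckling values.

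Rab13 (0.24), Rab25 (0.055), Rab14 (0.050), Rab4b (0.034), Rab8b (0.011) and Rab35 (-0.0099) differed less than their intervals. Rab35, of endocytic recycling, shows how far mice of 1 group can lie apart, with 5.78 on weaned replicate 4 and 4.87 on weaned replicate 5, a span that holds all 4 suckling values. Rab17, an epithelial recycling Rab, was not above background, and its single high array was weaned replicate 5 at 3.72.

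Late endosome, lysosome and autophagy Rabs had 7 members higher and 2 lower in mean (median 0.038). At an unadjusted p under 0.05 stood 0 of them (limma, lowest adjusted p = 0.74), beside 7.58% of all genes, a share at which a short list can hold 0. Rab7, which drives fusion with lysosomes, measured 9.41, 9.14 and 9.22 log2 units in weaned and 9.31, 9.12, 9.35 and 9.16 in suckling mice (0.023, interval -0.24 to 0.29). Rab9, of the route from late endosomes back to the Golgi, had the widest difference of the set (0.27, interval -0.097 to 0.63), with weaned replicate 12 at 5.42 above all other arrays. Rab29 (0.19), Rab12 (0.14), Rab24 (0.091), Rab9b (0.035) and Rab38 (-0.016) had intervals that include 0. Rab7b was not above background in either group, and Rab32, a Rab of lysosome-related organelles, measured 3.02 to 3.57 in weaned and 2.82 to 3.84 in suckling mice, around the reference.

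The remaining 11 members act at the cilium or have less settled roles, and 4 were higher and 7 lower in mean (median -0.11). Besides Rab19 they were Rab34 (0.29), Rab23, a regulator of Hedgehog signalling (0.23), Rab36 (0.20), Rab39b (-0.081), Rab40c (-0.12), Rab28 (-0.13), Rab39 (-0.16), Rab44 (-0.20) and Rab40b (-0.28), each with an interval that includes 0, and Rab42, not above background.

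Genes that share a number, such as Rab1a and Rab1b, encode close relatives, and their balance was compared within each array, where scaling between arrays cancels. These 18 pairs, with all members above background, were compared after the values had been seen, by an exact two-sided permutation over the 35 splits of the arrays into 3 and 4, for which the smallest p is 0.0286. Only the change of a balance between groups is meaningful, since levels of different probe sets are not comparable. Rab1b minus Rab1a was -2.13, -1.94 and -2.0 log2 units in weaned and -2.50, -2.24, -2.25 and -2.43 in suckling mice. All weaned values lay above all suckling values, a change of 0.33 (exact permutation p = 0.0286, adjusted p = 0.514 over the 18 pairs). Rab3b minus Rab3a changed by 0.21, with weaned values of -0.09, -0.12 and -0.11 just above the highest suckling value, -0.12 on replicate 2 (exact permutation p = 0.0857, adjusted p = 0.514).

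Rab2b minus Rab2a changed by -0.25 with the brighter Rab2a set, where the groups overlap (exact permutation p = 0.0857), and by -0.31 with the other, where they do not (exact permutation p = 0.0571). The Rab11 pair changed by -0.012 with the brighter Rab11b set and by 0.090 with the other (exact permutation p = 0.914 and 0.714), and the Rab8 pair by 0.018 (exact permutation p = 0.943). No pair passed after adjustment. Over 18 pairs a single one at the smallest exact permutation p, 0.0286, could not have passed, so no conclusion is drawn from this.

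**Figure D4:**
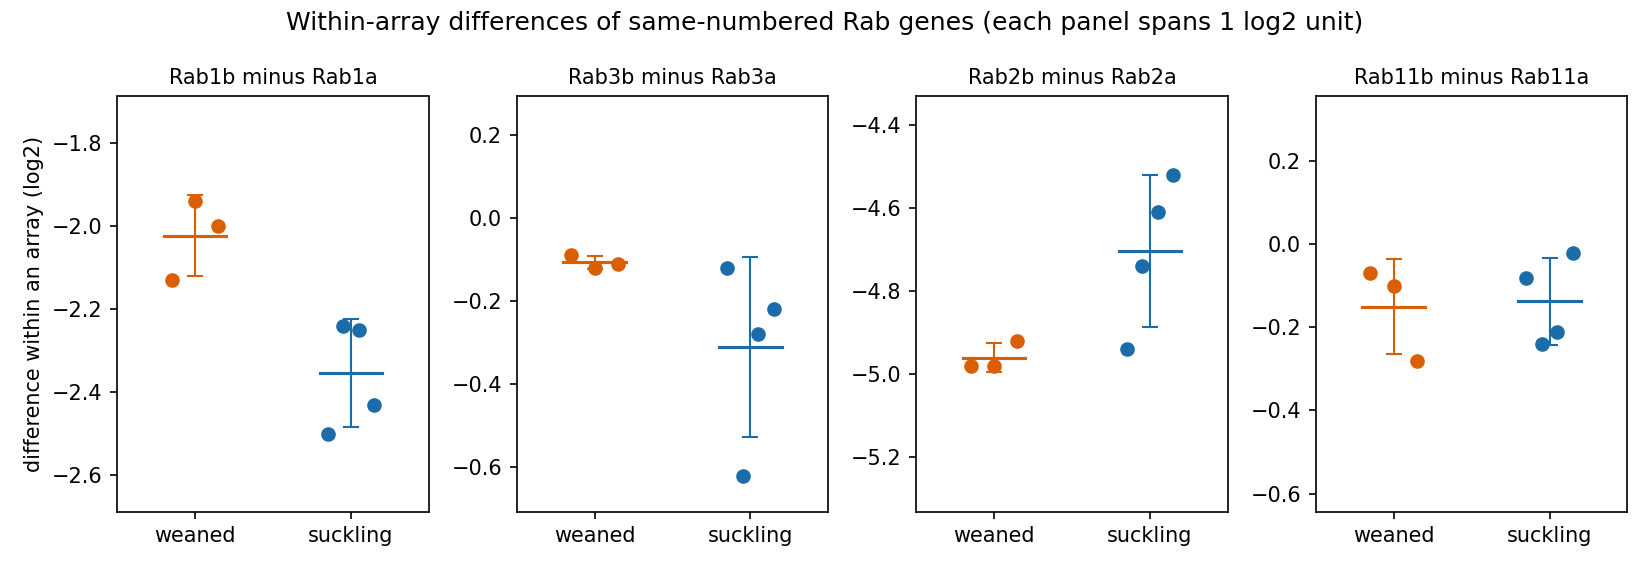
Difference between same-numbered Rab genes within each array (log2, vertical axis) for 4 pairs; points are arrays, bars group means and whiskers 1 SD. Weaned values lie above suckling values for Rab1b minus Rab1a and, by a narrow margin, for Rab3b minus Rab3a, and overlap in the 2 other panels.

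The genes that switch, carry and read Rabs were described from 5 lists with 174 measured members of 178. No member passed an adjusted p of 0.05 (limma; lowest 0.486). Of the 174, 96.0% were above background in both groups. At an unadjusted p under 0.05 stood 14, or 8.05%. The share was 7.58% of all genes and 8.59% of those above background in both groups. Without weaned replicate 5 the count was 8, where 6.7% of all genes had such a p. Of the 14, 8 were higher and 6 lower in weaned mice. That split was 6 and 9 after quantile normalization and 9 and 3 with arrays centred on their medians. The groups did not overlap for 16 members (9.2%), beside 7.32% of all genes and 8.25% of those above background in both groups. The median log2 difference was 0.022.

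Among 51 exchange factors 3 (5.88%, beside 7.58% of all genes) had an unadjusted p under 0.05, each of them higher in the weaned mean; the list median was 0.022. Rin2, an exchange factor of Rab5, measured 4.15, 4.47 and 4.40 log2 units in weaned and 3.85, 3.88, 3.88 and 4.00 in suckling mice, and the groups did not overlap (0.44, SE 0.12, adjusted p = 0.486 by limma). Trappc6a, a subunit of the TRAPP complexes that act on Rab1, measured 7.10, 7.30 and 7.41 against 6.54, 7.01, 6.95 and 6.77 (0.45, SE 0.14), also without overlap. Dennd3 differed by 0.27 (SE 0.11).

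Of 38 GTPase activating proteins 4 had such a p, or 10.5% beside 7.58% of all genes, a small count whose share was not tested. Of these 3 were higher and 1 lower, and the list median was 0.056. Tbc1d4, known as AS160 and as the insulin-regulated brake on Rab10 in fat cells, measured 5.10, 4.97 and 5.01 log2 units in weaned and 4.85, 4.74, 4.33 and 4.58 in suckling mice. Every weaned array lay above every suckling array (0.40, SE 0.14, adjusted p = 0.592 by limma). Tbc1d22a (0.38, SE 0.13) and Grtp1 (0.31, SE 0.12) also did not overlap between groups, and Tbc1d15, which acts on Rab7, was lower at -0.29 (SE 0.13).

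Of 12 genes for escort, prenylation and membrane insertion 1 (8.33%, beside 7.58% of all genes) had such a p (list median -0.030). Yipf5, a membrane protein of the early secretory route that binds Rabs, measured 9.08, 8.79 and 8.72 in weaned and 9.14, 9.20, 9.28 and 9.21 in suckling mice, without overlap (-0.34, SE 0.12, adjusted p = 0.577 by limma).

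Of 27 effectors of secretion 4 had such a p, or 14.8% beside 7.58% of all genes, a small count whose share was not tested against other genes. Of these 3 were lower and 1 higher, the list median was -0.064, and none passed adjustment (limma; lowest adjusted p = 0.506). Sytl3, a synaptotagmin-like protein that binds Rab27, had the widest difference of the 5 lists, at 4.99, 4.27 and 4.31 log2 units in weaned and 5.08, 5.64, 5.43 and 5.04 in suckling mice (-0.77, SE 0.21, interval -1.25 to -0.29, adjusted p = 0.506 by limma). Weaned replicate 4 lay next to the suckling values and the other weaned arrays well under them. Exoc7, a subunit of the exocyst that tethers vesicles at the surface, measured 6.40, 6.55 and 6.57 against 6.73, 6.94, 7.07 and 7.05 (-0.44, SE 0.12), without overlap. Exoc6, the exocyst subunit that binds Rab11, differed by 0.33 (SE 0.14) and Rims4, a small relative of the Rab3 effectors Rims1 and Rims2, by -0.40 (SE 0.17).

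Of 46 effectors of endosomes, Golgi and lysosomes 2 had such a p, or 4.35% beside 7.58% of all genes. Of these 1 was higher and 1 lower, and the list median was 0.037. Uso1, the tether known as p115 that Rab1 recruits, measured 9.74, 9.49 and 9.41 in weaned and 9.76, 9.87, 9.84 and 9.96 in suckling mice (-0.31, SE 0.12), just without overlap, and Rilpl2 differed by 0.32 (SE 0.14).

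**Figure D5:**
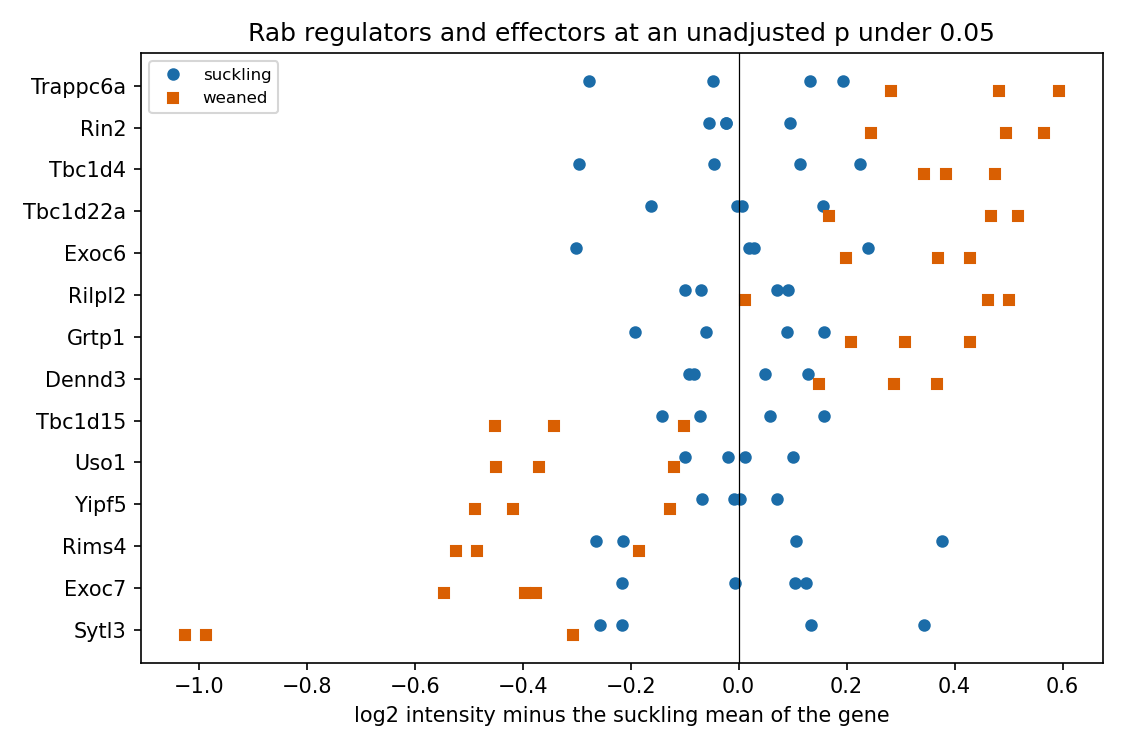
Log2 intensity minus the suckling mean of the gene (horizontal axis) for the 14 Rab regulators and effectors with an unadjusted p under 0.05; squares are weaned and circles suckling arrays. Trappc6a (0.45) is at the top and Sytl3 (-0.77) at the bottom, where 1 weaned array lies close to the suckling arrays.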

How the data were processed

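RNA of the sorted cells was purified on small columns and then amplified before labelling, per the labels' protocols. For every probe set and array the authors deposited an intensity. The submitters' processing notes name RMA and Partek 6.6, and settings are not given in the sources used here. They lie on a linear scale (1.45 to 12755), so log2 of the deposited values was taken. Of 35556 probe sets 21789 carry 1 gene symbol, 1621 several and 12146 none, and 0 per-sample columns were left out. Symbols were updated by gene ID through a RefSeq table (21698 matched, among them all 62 Rab probe sets), which also gave chromosomes and promoter sequences of GRCm38.p6. For 999 genes with several probe sets the brightest stood for the gene.

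The groups were compared with limma 3.58.1 in R 4.3.3 (lmFit, eBayes, no covariate, two-sided, Benjamini-Hochberg over 19938 genes), and the fit was tested on simulated data. Lists of genes hold 178 Rab regulators and effectors and markers of beta, alpha, delta, PP, acinar, duct, leukocyte, endothelial and mesenchymal cells. Given by array were members at an unadjusted p under 0.05 or without overlap, and a fixed set of 20. Members, lists and this rule were chosen with earlier results of these data known. The check of probe set numbers used the 10 nearest on each side. The alternatives were an intensity trend with robust prior, quantile normalization, median centring, array weights, averaging the probe sets of a gene, dropping genes under the median level or its 25th percentile, an acinar covariate, leaving out each array or suckling replicates 2 and 9, a threshold of 0.1 and, chosen after the data were seen, the other probe set for Rab2a, Rab5b and Rab11b.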

Additional observations from a re-analysis of the deposited data

Results flagged for a closer look

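In 3 of 73 suckling groups looked at, those of 59 Rab genes and 14 regulators and effectors, 1 array lay far from the other 3, by a gap that takes up over 0.829 of the group's range. Chance marks about 1 in 20 groups of 4 in this way, so the count is no more than chance gives. Rab3a on suckling replicate 2 measured 6.52 log2 units, where the others lay between 6.82 and 6.85. Rab28, a Rab of the cilium and photoreceptor, measured 6.15 on the same array against 6.64 to 6.67. Rab5b measured 6.68 on suckling replicate 12 against 7.06 to 7.09, by its brighter probe set. Suckling replicate 2 had the highest acinar sum, 4533, and its part in these values was not tested.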

How the results depend on the processing

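No paired analysis was possible because only replicate number 12 occurs in both groups. The count of Rab genes past an adjusted p of 0.05 was 0 in all 17 refits and also at a threshold of 0.1, and the lowest adjusted p of any member over the refits was 0.377 (limma), while 0 to 9 of all genes passed where 3 did in the comparison as reported. With 1 array left out, the members at an unadjusted p under 0.05 numbered 2 to 7. The lowest count came without suckling replicate 2 (3.39%, beside 6.82% of all genes). The highest count came without weaned replicate 12, where 7 members (11.9%, beside 7.66% of all genes) were Rab2b, Rab13, Rab19, Rab20, Rab29, Rab36 and Rab40b. Without suckling replicates 2 and 9 the count was 1, Rab2b (1.69%, beside 5.46% of all genes). With the acinar covariate the 3 members (5.08%, beside 5.87% of all genes) were Rab2b, Rab34 and Rab42, the last of them not above background. Members whose groups do not overlap numbered 3 to 13 with 1 array left out. Leaving out an array cannot make separated groups overlap, so this count could not fall. It was again highest without weaned replicate 12 (22%, beside 15.9% of all genes), the only such run with a member share above that of all genes. The lowest count, 3, came without weaned replicate 4 (5.08%, beside 16.5%), suckling replicate 9 (beside 10.3%) or suckling replicate 11 (beside 11.9%). Without suckling replicates 2 and 9 the count was 11 (18.6%, beside 19.4%), where fewer arrays make separation more frequent. Such members numbered 2 with the mean of probe sets (3.39%, beside 7.39% of all genes), Rab2a and Rab2b. The Rab2a mean includes its brighter probe set of uncertain origin. Regulators and effectors at an unadjusted p under 0.05 numbered 8 to 17 with 1 array left out. The fewest came without weaned replicate 5, where 6.7% of all genes had such a p. The most came without weaned replicate 4, where 7.78% of all genes did. The median of the members stayed positive and within 0.001 and 0.057. Rab2b kept an unadjusted p under 0.05 in all 17 refits, Rab19 in 15 of 17 and Rab15 in 10 of 16. Of 59 members 33 kept their sign in every refit; the others had differences of at most 0.19 in size in the comparison as reported.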
